A study of Mus musculus with 10 samples.

Results

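The proteasome genes of mouse CD8+ T cells were taken as the protein-coding genes of the deposited table whose symbol is Psma, Psmb, Psmc, Psmd, Psme or Psmf followed by a number, which gave 44 of 57010 genes. RNA of splenic CD8+ T cells was sequenced in 10 libraries, 2 from each of 5 mice. The 3 conditional knockout (cKO) mice carried floxed Dusp2 on both alleles and 1 copy of the E8I-cre transgene (Dusp2fl/fl-E8I-cre+/-). The 2 control mice carried the same floxed alleles without the transgene (Dusp2fl/fl-E8I-cre-/-). E8I is an enhancer of the Cd8a locus that drives Cre in mature CD8+ T cells. No mouse with Cre and unfloxed Dusp2 is among the groups, so the loss of Dusp2 and the presence of Cre cannot be told apart. From each mouse, cells were cultured ex vivo for 24 h either with anti-CD3/CD28 beads (activated) or without beads (rested). This gave 3 activated cKO, 2 activated control, 3 rested cKO and 2 rested control libraries. cKO mice 1 and 2 and control mouse 1 were male, and cKO mouse 3 and control mouse 2 were female. The ages of the mice were not stated.

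The proteasome degrades ubiquitin-tagged proteins. Its core particle is a barrel of outer alpha rings and inner beta rings, and Psmb5, Psmb6 and Psmb7 carry the catalytic sites. In cells exposed to interferon gamma, and constitutively in many haematopoietic cells, Psmb8, Psmb9 and Psmb10 replace them to form the immunoproteasome, which is known for making peptides that MHC class I presents. The regulatory particle, made of a base with ATPases and a lid, binds, deubiquitinates and unfolds substrates at the ends of the core. Psme1 and Psme2 form an alternative, interferon-inducible cap.

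Dusp2, which encodes a phosphatase of mitogen-activated protein kinases, checked the labels. It had 28.8, 23.8 and 26.8 FPKM (fragments scaled to gene length and library total) in activated cKO cells, against 149.7 and 151.6 FPKM in activated control cells. Rested cKO cells had 12.1, 12.1 and 13.8 FPKM, against 42.7 and 47.6 FPKM in rested control cells. cKO and control libraries did not overlap in either state (adjusted p 1.18e-09 activated and 8.1e-08 rested), and the library titles of cKO mouse 3, which go against its other labels, were not used for grouping. Library totals were 51203786 to 65135435 counts. The 6 CD8 T cell markers summed to 2390 to 2580 CPM (counts scaled to library total) in activated cKO, 2460 to 2560 CPM in activated control, 2570 to 2600 CPM in rested cKO and 2520 to 2670 CPM in rested control libraries. Among markers of other cells, Csf1r and Ncr1 were near 0 in every library (at most 0.145 and 0.0708 CPM), while Cst3 had 21.1 to 24.1 CPM, Cd68 had 8.4 to 16 CPM and Eomes had 12.2 to 81.2 CPM.

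The promoters of 2 inducible and 2 constitutive catalytic subunits are shown, since the results set these pairs side by side. Promoters (250 bases before to 50 after the listed start) come from RefSeq, build GRCm38.p6, in which 37 of the 44 genes had an entry. Capitals mark a match to 1 of 4 motifs searched on both strands: a GAS (TTCNNNGAA) in Psmb8, a CCAAT box (CCAAT, reverse complement ATTGG) in Psmb9, and an antioxidant response element (ARE, TGACNNNGC) in Psmb5 and in Psmb6. The matches begin at positions -97, -8, -47 and -9 from the start, in that order. The promoter of Psmb8 lies at chr17:34197945-34198244 (+ strand), Psmb9 at chr17:34187281-34187580 (- strand), Psmb5 at chr14:54617946-54618245 (- strand) and Psmb6 at chr11:70525107-70525406 (+ strand).
Psmb8: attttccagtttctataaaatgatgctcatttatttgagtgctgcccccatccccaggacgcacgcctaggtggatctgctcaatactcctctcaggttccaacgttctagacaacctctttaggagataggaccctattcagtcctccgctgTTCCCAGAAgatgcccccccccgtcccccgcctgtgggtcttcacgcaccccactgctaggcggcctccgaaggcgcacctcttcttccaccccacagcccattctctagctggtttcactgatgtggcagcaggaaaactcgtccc
Psmb9: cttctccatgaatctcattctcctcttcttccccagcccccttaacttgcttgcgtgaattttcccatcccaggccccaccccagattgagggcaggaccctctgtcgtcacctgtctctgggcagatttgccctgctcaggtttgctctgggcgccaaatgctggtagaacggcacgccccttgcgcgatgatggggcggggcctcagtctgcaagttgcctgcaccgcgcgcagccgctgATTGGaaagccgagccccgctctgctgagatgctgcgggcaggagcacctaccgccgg
Psmb5: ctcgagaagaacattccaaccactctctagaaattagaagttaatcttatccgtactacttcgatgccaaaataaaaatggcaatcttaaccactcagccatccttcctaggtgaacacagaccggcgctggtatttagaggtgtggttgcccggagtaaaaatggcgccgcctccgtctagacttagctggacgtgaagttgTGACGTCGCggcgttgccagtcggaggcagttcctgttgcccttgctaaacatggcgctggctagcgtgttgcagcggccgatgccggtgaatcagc
Psmb6: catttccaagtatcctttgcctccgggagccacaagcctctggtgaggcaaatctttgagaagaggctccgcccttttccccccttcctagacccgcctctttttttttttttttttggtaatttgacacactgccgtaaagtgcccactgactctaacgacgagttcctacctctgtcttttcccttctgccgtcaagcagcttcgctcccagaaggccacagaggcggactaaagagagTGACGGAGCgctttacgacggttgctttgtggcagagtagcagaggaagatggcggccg

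A motif match is a description of these letters and not a site. The ARE letters occurred in 6 of 37 proteasome promoters (16.2%) and in 14.0% of promoters of 27025 genes. CCAAT occurred in 14 (37.8%) against 41.1% of all. Among the roles with more than 1 gene, all of them small, this ranged from 1 of 6 lid genes to 5 of the 7 alpha ring genes. GAS letters occurred in 2 (5.4%), Psmb8 and Psmd2, against 9.6% of all. The ISRE letters (GAAA, then NN, then GAAA; the element of interferon-stimulated genes) occurred in 4 (10.8%) against 4.0% of all, namely Psme1, Psmb3, Psmd4 and Psmd9. The promoter listed for Psmb10 held none of the 4 motifs.

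Proteasome transcripts took a larger share of the library in activated cells. They made up 0.630, 0.607 and 0.711% of all counts in activated cKO libraries and 0.570 and 0.638% in activated control libraries. In rested cells the share was 0.308, 0.314 and 0.316% in cKO and 0.301 and 0.310% in control libraries. Activated and rested libraries did not overlap. Values are shares of a library, so RNA per cell was not measured. In bulk samples fewer cells of a type and less RNA per cell cannot be told apart.

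Of the 44 genes, 42 had enough counts to be tested. Psma8, a testis form of an alpha subunit, had 2, 1 and 4 counts in activated cKO, 3 and 6 in activated control, 0 in each rested cKO and 1 in each rested control library. Psmb11, the catalytic subunit of cortical thymic epithelium, had 1, 2 and 7 counts in activated cKO, 0 and 1 in activated control, 0 in each rested cKO and 4 and 2 in rested control libraries. A count of 0 allows up to 3 counts, so differences were not detectable at this depth.

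Activation was compared with rest in each genotype. A gene is called higher or lower where its Benjamini-Hochberg adjusted p over the 18966 genes tested, from edgeR's quasi-likelihood test with sex as a covariate, is below 0.05. In cKO cells 39 of the 42 tested members were higher and 0 lower after activation, where 31.5% of all genes tested were called higher and 31.9% lower. In control cells 38 of 42 were higher and 0 lower, where 28.5% of all genes were called higher and 27.6% lower. The median log2 fold change of the members was 1.10 in cKO and 1.04 in control cells, while the median over all genes tested was -0.01 in cKO and 0.00 in control cells. The members not called higher in cKO cells were Psmb8, Psmb9 and Psmb10, the 3 catalytic subunits of the immunoproteasome. In control cells they were the same 3 genes and Psmd5. Per mouse, without a test, the median of activated over rested was 1.08, 0.96 and 1.21 in cKO mice and 0.95 and 1.08 in control mice.

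**Figure D1:**
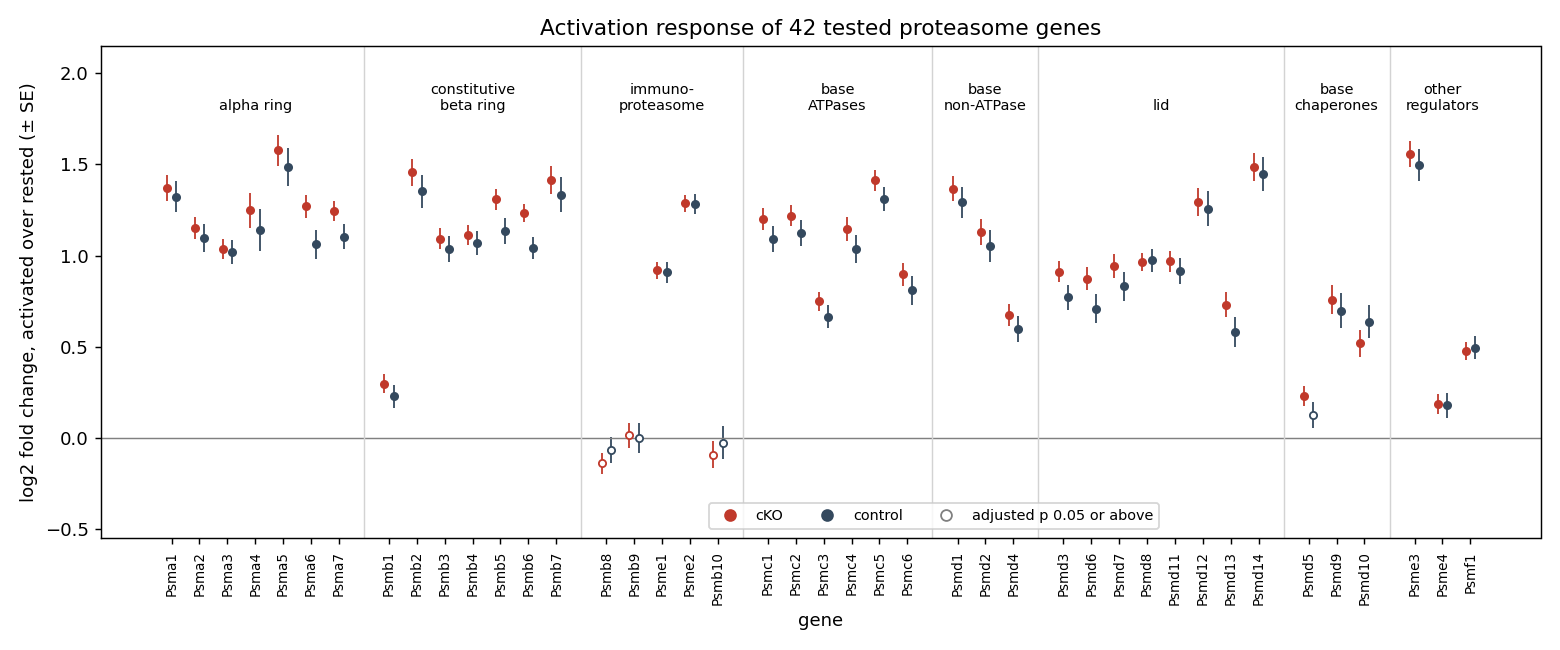
log2 fold change (activated over rested, ± SE, vertical axis) of the 42 tested proteasome genes (horizontal axis, grouped by role) in cKO and control cells; open points have an adjusted p of 0.05 or above. Psmb8, Psmb9 and Psmb10 lie near 0 in both genotypes, Psmb1, Psmd5 and Psme4 lie at or below 0.30, and the other genes lie between 0.48 and 1.58.

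The alpha ring, which forms the gated outer rings of the core, was higher throughout. All 7 genes were called in both genotypes, with a median log2 fold change of 1.25 in cKO and 1.10 in control cells. Psma5 had 57.4, 55.1 and 77.4 FPKM in activated cKO cells and 51.2 and 61.2 FPKM in activated control cells. Rested cells had 20.2, 20.1 and 19.8 FPKM in cKO and 17.7 and 20.6 FPKM in control libraries. Every activated library was above every rested library. Its log2 fold change was 1.58 ± 0.09 in cKO (SE; adjusted p 6.82e-09) and 1.49 ± 0.11 in control cells (adjusted p 1.36e-07).

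The 7 constitutive beta ring genes were also called higher in both genotypes, with a median of 1.23 in cKO and 1.07 in control cells. Psmb5, which carries the chymotrypsin-like site, had 95.6, 95.2 and 99.6 FPKM in activated cKO and 81.7 and 91.1 FPKM in activated control cells. Its rested values were 38.1, 35.9 and 38.1 FPKM in cKO and 38.6 and 36.6 FPKM in control cells. No rested library reached the lowest activated one, and the log2 fold change was 1.31 ± 0.06 in cKO and 1.13 ± 0.07 in control cells (adjusted p 7.85e-10 and 3.46e-08, in that order).

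Psmb6, which carries the caspase-like site, had 79.2, 76.0 and 87.5 FPKM in activated cKO and 71.0 and 76.5 FPKM in activated control cells, against 32.7, 30.7 and 35.2 FPKM in rested cKO and 32.3 and 36.1 FPKM in rested control cells. Psmb7, which carries the trypsin-like site, had 25.7, 23.9 and 32.1 FPKM in activated cKO and 22.2 and 27.4 FPKM in activated control cells, against 9.66, 9.77 and 9.63 FPKM in rested cKO and 8.91 and 9.79 FPKM in rested control cells. For both genes the activated and rested libraries were separate. Psmb6 rose by a log2 fold change of 1.23 ± 0.05 in cKO and 1.04 ± 0.06 in control cells (adjusted p 3.61e-10 and 1.81e-08). Psmb7 rose by 1.42 ± 0.08 in cKO and 1.34 ± 0.10 in control cells (adjusted p 5.37e-09 and 1.15e-07).

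Psmb1, a beta subunit without a catalytic site, rose least in the ring. It had 35.0, 35.4 and 36.6 FPKM in activated cKO and 32.4 and 32.4 FPKM in activated control cells, against 28.5, 28.5 and 26.3 FPKM in rested cKO and 27.0 and 25.8 FPKM in rested control cells. The groups did not overlap, but the step was smaller than for the other 6 beta genes. Its log2 fold change was 0.30 ± 0.05 in cKO (adjusted p 2.03e-04) and 0.23 ± 0.06 in control cells (adjusted p 0.0076). Without control mouse 2 the control value was 0.19 with an adjusted p of 0.178.

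The inducible catalytic subunits did not pass the test in either genotype. Of these, Psmb9 (ENSMUSG00000096727, chr17:34400961-34406738) and Psmb8 (ENSMUSG00000024338, chr17:34416695-34420428) lie 9956 bp apart in the deposited table (mm39), and Psmb10 (ENSMUSG00000031897) lies at chr8:106662367-106665076. Psmb8, the inducible counterpart of Psmb5, had 45.8, 50.7 and 44.0 FPKM in activated cKO and 49.0 and 44.6 FPKM in activated control cells. In rested cells it had 53.6, 49.0 and 45.3 FPKM in cKO and 46.9 and 46.4 FPKM in control libraries. Activated and rested libraries overlapped in both genotypes. Within a mouse, the log2 difference of activated minus rested was -0.30, -0.02 and -0.09 in cKO mice and -0.02 and -0.11 in control mice, below 0 in each of the 5 with TMM scaling. Without that scaling, in FPKM, the activated library was the higher one in cKO mouse 2 and control mouse 1. The log2 fold change was -0.14 in cKO (95% interval -0.26 to -0.01; adjusted p 0.052) and -0.07 in control cells (-0.22 to 0.09; adjusted p 0.466). Without cKO mouse 2 Psmb8 was called lower in cKO cells, at -0.18 with an adjusted p of 0.0424, and with mouse as a block it was not called.

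Psmb9, the counterpart of Psmb6, had 22.0, 22.5 and 18.8 FPKM in activated cKO and 23.4 and 19.9 FPKM in activated control cells, against 21.0, 19.6 and 19.2 FPKM in rested cKO and 19.6 and 21.5 FPKM in rested control cells. Psmb10, the counterpart of Psmb7, had 25.5, 31.4 and 25.5 FPKM in activated cKO and 29.8 and 25.1 FPKM in activated control cells, against 28.5, 28.4 and 26.8 FPKM in rested cKO and 26.8 and 26.3 FPKM in rested control cells. Both genes overlapped between the states. The log2 fold change of Psmb9 was 0.02 in cKO (95% interval -0.13 to 0.16; adjusted p 0.864) and 0.00 in control cells (-0.18 to 0.18; adjusted p 0.996). That of Psmb10 was -0.09 in cKO (-0.25 to 0.07; adjusted p 0.292) and -0.03 in control cells (-0.22 to 0.17; adjusted p 0.833). The upper bounds of all 6 intervals, at most 0.18, lie below the lower bounds of Psmb5, Psmb6 and Psmb7 in the same genotype, at least 0.91. Professional antigen-presenting cells also express these 3 genes. The 7 B cell markers summed to 3.45 to 3.77 CPM in activated cKO and 3.52 to 3.68 CPM in activated control libraries, against 5.78 to 6.37 CPM in rested cKO and 5.11 to 6.34 CPM in rested control libraries, mostly Cd79b. The 8 myeloid and dendritic cell markers summed to 37.7 to 43.9 and 37.2 to 38.4 CPM in activated cKO and control libraries, against 35.1 to 38.9 and 34.8 to 35.7 CPM in rested cKO and control libraries, mostly Cst3 and Cd68. The 4 CD4 T cell markers summed to 16.1 to 35.7 CPM in activated cKO and 15 to 24.1 CPM in activated control libraries, against 5.64 to 9.8 CPM in rested cKO and 3.42 to 5.9 CPM in rested control libraries, mostly Zbtb7b, while Cd4 itself was at or below 1.2 CPM. The part of these cells in the result was not tested.

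**Figure D2:**
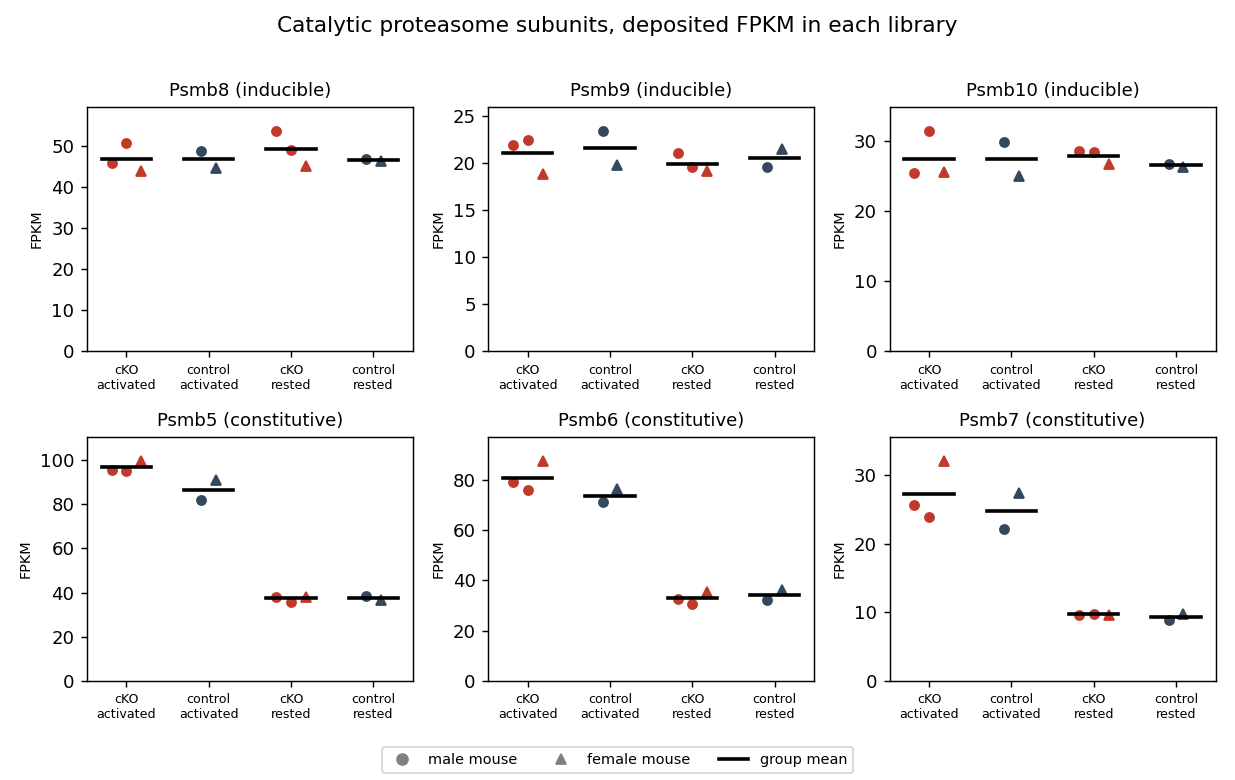
FPKM (vertical axes, from 0) of the 3 inducible and the 3 constitutive catalytic subunits in each library, by group (horizontal axes); points are mice, by sex, and bars are group means. The constitutive genes lie higher in every activated library than in any rested one, and the inducible genes overlap between the states.

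Levels per length gave a ratio of inducible to constitutive subunit in each library, reported here as a description. Psmb8 over Psmb5 was 0.480, 0.533 and 0.441 in activated cKO and 0.599 and 0.489 in activated control cells, against 1.41, 1.37 and 1.19 in rested cKO and 1.22 and 1.27 in rested control cells. In FPKM, Psmb8 exceeded Psmb5 in each rested library and was below it in each activated one. Which gene is higher depends on the deposited lengths, 3381 bases for Psmb8 and 899 for Psmb5. In raw counts the ratio averaged 1.91 in activated and 4.84 in rested libraries, so Psmb8 was on average above Psmb5 in both states. An alternative chosen after seeing the data added the counts of Mir686, a microRNA gene within Psmb5, to Psmb5. The FPKM ratio then averaged 0.352 in activated and 0.882 in rested libraries, so Psmb8 no longer exceeded Psmb5 at rest. Psmb9 over Psmb6 averaged 0.263 ± 0.043 in activated cKO (SD, n = 3) and 0.295 ± 0.049 in activated control cells (n = 2), against 0.609 ± 0.055 in rested cKO (n = 3) and 0.601 ± 0.0076 in rested control cells (n = 2). Psmb10 over Psmb7 averaged 1.03 ± 0.26 in activated cKO and 1.13 ± 0.31 in activated control cells, against 2.88 ± 0.088 in rested cKO and 2.85 ± 0.22 in rested control cells. On the log2 scale the activated minus rested difference, averaged over the 5 mice, was -1.35 for Psmb8 over Psmb5, -1.15 for Psmb9 over Psmb6 and -1.45 for Psmb10 over Psmb7. The 3 inducible genes were not called, and their 3 constitutive counterparts were called higher.

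**Figure D3:**
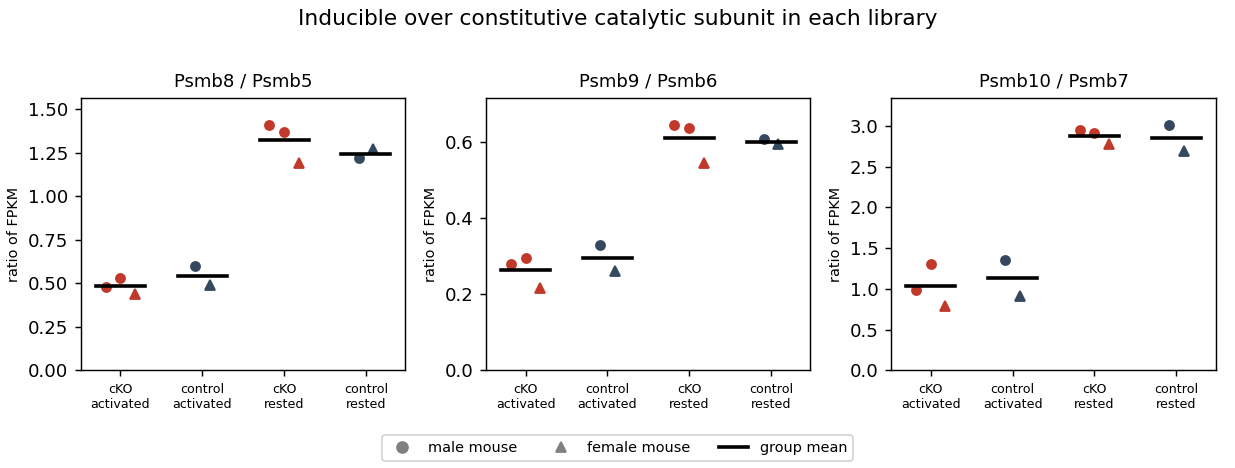
Ratio of FPKM of each inducible catalytic subunit to its constitutive counterpart (vertical axes, from 0) in each library, by group (horizontal axes); points are mice, by sex, and bars are group means. Every activated library lies below every rested library for the 3 pairs.

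The other 2 immunoproteasome genes, Psme1 and Psme2, which form the interferon-inducible cap, were called higher in both genotypes. In the deposited table (mm39) Psme1 (chr14:55815580-55818986) and Psme2 (chr14:55824898-55828570) lie 5911 bp apart. Psme1 had 168.0, 167.2 and 171.1 FPKM in activated cKO and 162.6 and 164.2 FPKM in activated control cells, against 82.4, 86.3 and 87.3 FPKM in rested cKO and 82.6 and 83.8 FPKM in rested control cells. Psme2 had 162.8, 159.5 and 158.9 FPKM in activated cKO and 157.3 and 160.0 FPKM in activated control cells, against 61.9, 63.3 and 63.4 FPKM in rested cKO and 61.6 and 62.9 FPKM in rested control cells. These were the 2 highest members per length in each of the 4 groups, and their activated and rested libraries were far apart. Psme1 had a log2 fold change of 0.92 ± 0.05 in cKO and 0.91 ± 0.06 in control cells (adjusted p 1.97e-09 and 2.97e-08). Psme2 had 1.29 ± 0.05 in cKO and 1.28 ± 0.06 in control cells (adjusted p 1.19e-10 and 1.59e-09). Psme2b, a gene named as a copy of Psme2, had 2138 to 2257 counts in activated cKO and 2394 to 2457 in activated control libraries, against 2569 to 3312 in rested cKO and 2753 to 3280 in rested control libraries. It was called lower, at -0.61 ± 0.08 in cKO and -0.45 ± 0.10 in control cells (adjusted p 1.11e-05 and 0.0012). How reads shared by the copies were counted was not stated.

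Psme3, which forms a related nuclear cap, had a larger log2 fold change than either, a difference that was not tested. It had 127.5, 112.6 and 142.6 FPKM in activated cKO and 112.9 and 135.4 FPKM in activated control cells, against 41.3, 41.0 and 41.5 FPKM in rested cKO and 41.7 and 41.9 FPKM in rested control cells. Its rested libraries were nearly level, and its activated libraries were spread, with the female mouse highest in each genotype. The log2 fold change was 1.56 ± 0.07 in cKO and 1.50 ± 0.09 in control cells (adjusted p 1.16e-09 and 2.14e-08).

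Psme4, an unrelated nuclear activator, had 15.8, 15.0 and 16.8 FPKM in activated cKO and 15.4 and 17.1 FPKM in activated control cells, against 12.8, 13.6 and 13.4 FPKM in rested cKO and 13.8 and 13.5 FPKM in rested control cells. Its log2 fold change was 0.19 ± 0.06 in cKO (adjusted p 0.0098) and 0.18 ± 0.07 in control cells (adjusted p 0.0391). This was the smallest called change, and it did not hold in several alternatives: in cKO cells the adjusted p was 0.0884 without cKO mouse 1 and 0.0914 without cKO mouse 3, and in control cells it was 0.0696 without cKO mouse 1, 0.573 without control mouse 2, 0.0599 with no sex term and 0.0723 with mouse as a block. Psmf1, an inhibitor of the core, had 10.7, 10.6 and 10.3 FPKM in activated cKO and 10.3 and 10.5 FPKM in activated control cells, against 7.32, 7.29 and 7.06 FPKM in rested cKO and 6.95 and 7.15 FPKM in rested control cells. It rose by a log2 fold change of 0.48 ± 0.05 in cKO and 0.50 ± 0.06 in control cells (adjusted p 1.96e-06 and 1.35e-05), and the states did not overlap.

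**Figure D4:**
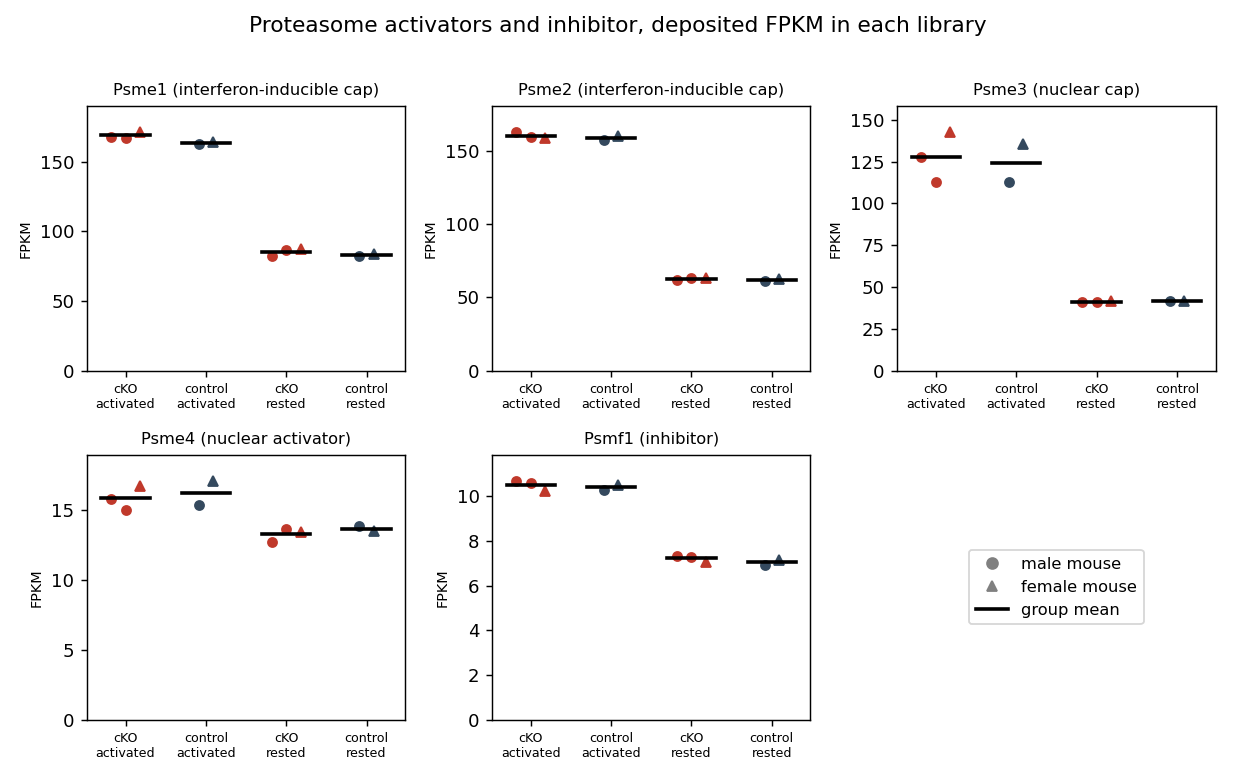
FPKM (vertical axes, from 0) of the 4 proteasome activators and the inhibitor Psmf1 in each library, by group (horizontal axes); points are mice, by sex, and bars are group means. Psme1, Psme2, Psme3 and Psmf1 show a wide gap between activated and rested libraries, and Psme4 a narrow one.

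The regulatory particle was called higher in all 17 of its subunits under the rule, in both genotypes. The 6 base ATPases, which unfold the substrate, had a median log2 fold change of 1.17 in cKO and 1.07 in control cells, from 0.75 to 1.41 in cKO and 0.67 to 1.31 in control cells. The 3 other base subunits, the scaffolds Psmd1 and Psmd2 and the ubiquitin receptor Psmd4, had a median of 1.13 in cKO and 1.05 in control cells. The 8 lid subunits had a median of 0.96 in cKO and 0.87 in control cells. Psmd14, the deubiquitinase of the lid, had 43.0, 40.7 and 52.4 FPKM in activated cKO and 37.8 and 45.5 FPKM in activated control cells. In rested cells it had 15.1, 15.9 and 15.1 FPKM in cKO and 14.3 and 14.8 FPKM in control libraries. The states were separate, and the log2 fold change was 1.49 ± 0.08 in cKO and 1.45 ± 0.09 in control cells (adjusted p 3.37e-09 and 5.61e-08).

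Psmd5, Psmd9 and Psmd10 carry subunit names but are chaperones of base assembly that leave the mature particle. Their median was 0.52 in cKO and 0.64 in control cells. Psmd5 had 6.48, 6.09 and 7.56 FPKM in activated cKO and 5.91 and 6.67 FPKM in activated control cells, against 5.08, 5.37 and 5.92 FPKM in rested cKO and 5.25 and 5.75 FPKM in rested control cells. Its log2 fold change was 0.23 ± 0.06 in cKO (adjusted p 0.0029) and 0.13 ± 0.07 in control cells (adjusted p 0.144), and the difference between the genotypes was not called. Psmd5 was called in control cells with scaling by library totals (adjusted p 0.029) and with limma on log2(FPKM + 0.5) (adjusted p 0.0453). The 5 chaperones of core assembly, which lie outside the name rule, were called higher in both genotypes. Of these, Pomp had a log2 fold change of 1.57 ± 0.08 in cKO and 1.58 ± 0.10 in control cells (adjusted p 1.97e-09 and 2.52e-08). The median of the 5 was 1.30 in cKO and 1.20 in control cells.

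Of 6 further subunits and associated proteins, 6 were called higher in cKO and 5 in control cells, and 0 lower. The proteasomal deubiquitinase Usp14 had the smallest p, with a log2 fold change of 0.95 ± 0.06 in cKO and 0.90 ± 0.07 in control cells (adjusted p 1.57e-08 and 3.26e-07). Of 7 genes for the transcription of proteasome genes, 2 were higher and 3 lower in each genotype. The shares to set beside this list and those below are those of all genes tested. These were 31.5% higher and 31.9% lower in cKO, and 28.5% higher and 27.6% lower in control cells. The 2 of 7 called higher lay near these shares. Nfe2l1, the transcription factor that induces proteasome genes when proteasome activity is low, had 60.5, 52.2 and 44.7 FPKM in activated cKO and 52.6 and 50.3 FPKM in activated control cells, against 18.6, 19.2 and 20.4 FPKM in rested cKO and 20.8 and 19.9 FPKM in rested control cells. Its log2 fold change was 1.36 ± 0.08 in cKO and 1.27 ± 0.10 in control cells (adjusted p 2.69e-08 and 5.26e-07). Ngly1 and Ddi2, which process the Nfe2l1 protein, were lower, at -0.77 and -0.26 in cKO and -0.83 and -0.23 in control cells. Nfe2l2 was also called lower, at -0.475 in cKO and -0.483 in control cells. Nfyb was the other gene called higher, at 0.292 in cKO and 0.407 in control cells.

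Regulators of the interferon gamma response were mostly higher, with 7 of 11 called higher and 3 lower in each genotype. Ifng, the cytokine itself, had 10.1, 6.38 and 5.09 FPKM in activated cKO and 5.04 and 4.43 FPKM in activated control cells, against 0.226, 0.249 and 0.168 FPKM in rested cKO and 0.116 and 0.161 FPKM in rested control cells. The activated and rested libraries did not overlap. Irf1, a transcription factor of the response, had a log2 fold change of 1.21 ± 0.05 in cKO and 1.38 ± 0.06 in control cells. The called-lower genes were the receptor genes Ifngr1 and Ifngr2 and the kinase gene Jak1, at -1.29, -0.90 and -1.17 in cKO and -1.41, -0.85 and -1.06 in control cells.

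Of 11 genes of MHC class I loading, 7 were higher and 2 lower in cKO cells, and 7 were higher and 1 lower in control cells. Tapbpl, a peptide editor, had a log2 fold change of 1.03 ± 0.07 in cKO and 1.09 ± 0.08 in control cells (adjusted p 1.54e-08 and 1.23e-07). Tap1, a peptide transporter subunit encoded beside Psmb9 on the opposite strand, had 0.15 ± 0.07 in cKO and 0.15 ± 0.08 in control cells and did not pass the test (adjusted p 0.0593 and 0.14). Tap2, its partner, was called lower, at -0.33 ± 0.06 in cKO and -0.38 ± 0.08 in control cells (adjusted p 3.89e-04 and 8.61e-04). Of 7 ubiquitin and ubiquitin-activating genes, 5 were higher and 1 lower in cKO, and 4 higher and 1 lower in control cells. Vcp, an unfoldase that delivers substrates, had 0.95 ± 0.07 in cKO and 0.84 ± 0.08 in control cells.

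The genotypes were then compared within each state. In activated cells 0 of the 42 tested members were called, where 0.0422% of all genes tested (8 genes) were called. Of the 42, 38 had a positive log2 fold change of cKO over control. The median of the 42 was 0.15 and the range was -0.05 to 0.23. Over all genes tested 9623 of 18966 were positive, and the median was 0.00. All 14 constitutive core genes were positive (median 0.17), as were all 17 regulatory particle genes (median 0.15). Of the 5 immunoproteasome genes, 2 were positive (median -0.02). The genes come from the same few mice, so here and below a number of positive genes does not count replicates. As a share of all counts, activated control mouse 2 (0.638%) lay above activated cKO mice 1 and 2 (0.630 and 0.607%). At an unadjusted p below 0.05 in edgeR's test, 18 of the 42 members and 6.02% of all genes passed. No member passed in DESeq2 or limma after adjustment.

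The 3 members with the smallest p in activated cells were Psma6, Psmb6 and Psma7. Psma6 had 124.3, 117.3 and 142.0 FPKM in cKO and 102.7 and 118.8 FPKM in control cells, so that cKO mouse 2 lay below control mouse 2. Its log2 fold change was 0.23 (95% interval 0.08 to 0.38) with an adjusted p of 0.692. For Psmb6, with the values given above, the change was 0.16 (0.04 to 0.28; adjusted p 0.741), and for Psma7 it was 0.17 (0.04 to 0.31; adjusted p 0.761). All activated cKO libraries lay above all activated control libraries in 4 of 42 members, against 7.70% of all genes, and below them in 0, against 9.36% of all genes.

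Sex moved with these values. Female libraries were above male ones in 37 of 42 members in activated cKO cells (median log2 difference 0.23) and in 39 of 42 in activated control cells (0.19). In rested cells they were above in 21 of 42 in cKO (median 0.00) and 32 of 42 in control cells (0.03). The main fit used the same sex term for both states, which does not follow this difference between the states. With a sex effect per state, no member was called between the genotypes or for the interaction. The leading number of the mouse names also differs between the sexes, so sex and whatever that number marks cannot be told apart. Within a sex, activated cKO was above activated control in 39 of 42 members among males (median 0.14; 2 mice against 1) and in 37 of 42 among females (median 0.18; 1 mouse against 1). The immunoproteasome genes had a median of -0.02 among males and -0.01 among females. These within-sex values have too few mice for a test. The counts by sex and within a sex were not taken over all genes. Of markers of other cells, the 10 NK and innate-like genes summed to 58.9 to 91.2 CPM in activated cKO and 30.7 to 48.2 CPM in activated control libraries, and to 31 to 54.1 CPM in rested cKO and 15.3 to 30.3 CPM in rested control libraries, mostly Eomes, which CD8+ T cells also express. The difference was not in Eomes alone. Of the 9 such genes tested, 8 had a positive log2 fold change of cKO over control in activated and 7 in rested cells. In each state 5 had an unadjusted p below 0.05 in edgeR's test, against 6.02% of all genes in activated and 4.13% in rested cells. None was called after adjustment. The part of these genes in the genotype values of the proteasome members was not tested.

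In rested cells 0 of the 42 tested members were called between the genotypes, where 0.0422% of all genes were called. The log2 fold change was positive in 37 of 42, with a median of 0.05 and a range of -0.07 to 0.18. Over all genes tested 9733 of 18966 were positive, with a median of 0.00. In edgeR's test 1 member, Psmd10, had an unadjusted p below 0.05, against 4.13% of all genes. Psmd10 had 12.1, 11.6 and 11.0 FPKM in rested cKO and 10.1 and 10.3 FPKM in rested control cells, and its log2 fold change was 0.18 (95% interval 0.00 to 0.37; adjusted p 1). Next by p were Psmb4 at 0.12 (-0.01 to 0.25) and Psmb3 at 0.11 (-0.03 to 0.25). All rested cKO libraries lay above all rested control libraries in 9 of 42 members and below them in 1, against 8.96% and 8.69% of all genes.

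**Figure D5:**
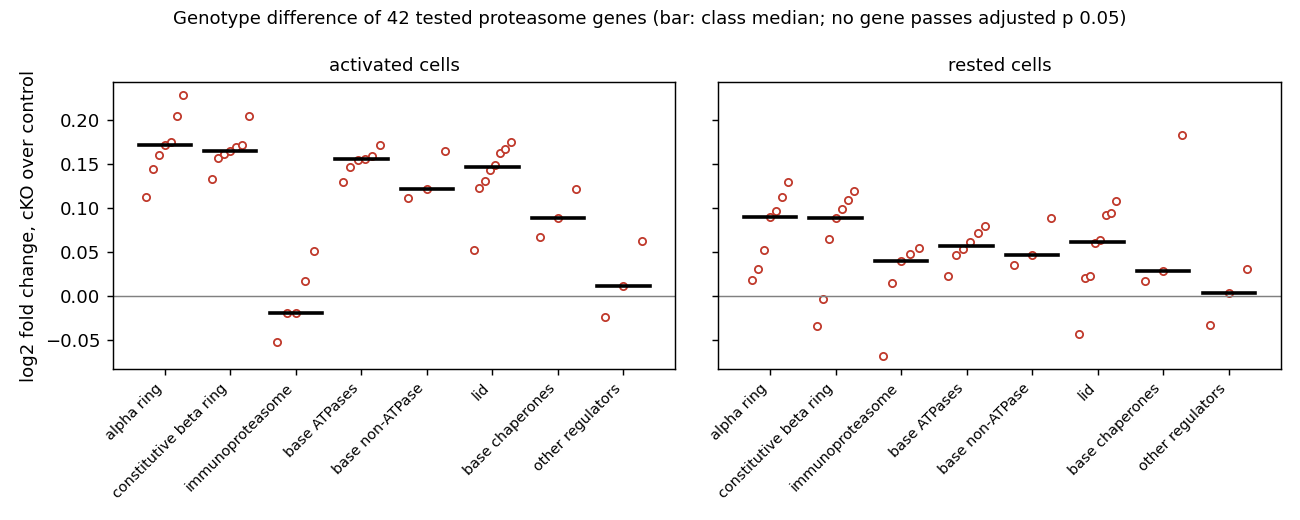
log2 fold change of cKO over control (vertical axis) of the 42 tested proteasome genes in activated (left) and rested (right) cells, by role (horizontal axis); points are genes and bars are medians of a role. In activated cells the core, base and lid genes lie above 0 and the immunoproteasome genes around 0, and no gene passes the adjusted threshold.

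The interaction asks whether the activation response differs between the genotypes. It called 0 of 42 members and 0% of all 18966 genes, of which 2.74% had an unadjusted p below 0.05. The interaction was positive in 37 of 42 members, with a median log2 value of 0.08. Over all genes tested it was positive in 8991 of 18966, with a median of -0.01. Its smallest p was that of Psmb6, at 0.19 (95% interval 0.02 to 0.36; unadjusted p 0.0285, adjusted p 1), followed by Psma6 at 0.21 (-0.01 to 0.43) and Psmb5 at 0.18 (-0.02 to 0.37). For Psmb8, Psmb9 and Psmb10 it was -0.07 (-0.27 to 0.13), 0.02 (-0.22 to 0.25) and -0.07 (-0.31 to 0.18). The 2 activation comparisons and the 2 genotype comparisons share their libraries in pairs, so their values are not independent of each other.

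Some counts may hold reads of a neighbouring gene. Of the 44 genes, 21 overlap another gene body, and 5 overlap a gene with over 10% of their counts: Psma3, Psmb5, Psmb9, Psmd1 and Psmd13. Mir686, on the same strand as Psmb5, had 44.8% as many counts as Psmb5. It rose with activation by 1.28 ± 0.07 in cKO and 1.03 ± 0.09 in control cells (adjusted p 6.57e-09 and 5.34e-07), beside 1.31 and 1.13 for Psmb5. Tap1, on the strand opposite to Psmb9, had 477.8% as many counts as Psmb9, and neither gene was called. 3110056K07Rik, opposite to Psma3 with 20.7% as many counts, was called lower, at -0.83 in cKO and -0.63 in control cells, where Psma3 rose by 1.04 and 1.02. Sirt3, opposite to Psmd13 with 19.2% as many counts, was called lower, at -0.69 in cKO and -0.62 in control cells, where Psmd13 rose by 0.73 and 0.58. Gm15542, on the strand of Psmd13 with 19.2% as many counts, rose by 0.76 in cKO and 0.77 in control cells. Psmd1 rose by 1.37 in cKO and 1.29 in control cells, beside 1.36 and 1.28 for Gm21972 on its strand.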

How the data were processed

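Per the labels' protocols, cDNA libraries were built from total RNA with a kit for stranded mRNA. Per the submitters' processing notes, the authors used Subread, FastQC and MultiQC with the mm39 build, and no versions are listed. The deposited counts are whole numbers for each gene, not normalized. The deposited FPKM values equal the authors' counts scaled by gene length and by the column sum, and gene length is from the deposited table. Whether counting used the strand, and how multi-mapping reads were treated, was not stated, so overlapping genes and copies are uncertain. Promoter sequences are of GRCm38.p6 and were matched by symbol only.

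Counts were fitted in R 4.3.3 with edgeR 4.0.16 (TMM, filterByExpr by group, robust quasi-likelihood, group means plus sex, 10 libraries, 18966 of 57010 genes). The biological coefficient of variation was 9.14%. SEs were computed from the log2 fold change and its F statistic. Adjusted p-values are Benjamini-Hochberg over all genes, and intervals are 95%. The procedure was run on simulated counts for an activation comparison only, without sex or mouse effects. This run does not cover the genotype comparisons or the interaction. Alternatives used DESeq2 1.42.0 and limma 3.58.1. Sequences and figures were handled in Python 3.11.15. At totals of 51203786 to 65135435, a floor of 3 counts is 0.0461 to 0.0586 CPM, which covers counting error only. No replicate pair looked like a repeat of 1 library (chi-square over genes, divided by its degrees of freedom, 8.55 to 41.7), and mice are separate animals. Genotype and sex follow the characteristics. The activated state follows the characteristics and the library names. The characteristics of rested libraries list no treatment, so the rested state follows the library names. Both titles of cKO mouse 3 go against this grouping and were not used.

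The proteasome genes and the lists were chosen with earlier results of these data known. Values in every library are given for the immunoproteasome genes, their constitutive counterparts, the other activators and the inhibitor, and Psmb11 and Psma8. Per comparison, up to 3 called members with the highest and up to 3 with the lowest log2 fold change are also named, or the 3 with the smallest p where none was called, and up to 4 genes of each other list. Rested and activated libraries of a mouse pair by design. After subtracting group means they correlated at 0.25, 0.15 and 0.33 in cKO and 0.36 and 0.36 in control mice. The control values are the same number, because the deviations of the control mice from their group mean mirror each other. These mice differ in sex, so that number cannot be told apart from a sex difference. The consensus correlation within a mouse from limma's duplicateCorrelation was -0.135. Alternatives were other scalings, filters and tests, no sex term and a sex effect per state. Others used only the compared groups, left out each mouse or took mouse as a block.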

Additional observations from a re-analysis of the deposited data

How the results depend on the processing

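Over 15 alternatives, the members called higher after activation numbered 38 to 39 in cKO and 36 to 39 in control cells. Leaving out each mouse gave 38 to 39 in cKO and 36 to 38 in control cells, and 0 to 1 members lower in cKO cells. The 1 was Psmb8 without cKO replicate 2, where the cause was not tested. No member was called between the genotypes in any of these 15 alternatives, or for the interaction in 14, and no called value changed direction. With mouse as a replicate block, 39 members were higher in cKO and 37 in control cells, and Psme4 in control cells (0.18, adjusted p 0.0723) was the only call that changed. Raw counts, which ignore gene length, gave ratios in activated and rested libraries of 1.91 and 4.84 for Psmb8 over Psmb5, 0.539 and 1.18 for Psmb9 over Psmb6, and 0.534 and 1.43 for Psmb10 over Psmb7. With Mir686 counts added to Psmb5, Psmb8 over Psmb5 was 0.352 and 0.882. These shifts follow from the gene lengths and the added counts, and the activated minus rested difference kept its sign. With 2 control mice, the 95% intervals of the genotype differences in activated cells reached down to -0.22 (Psmb9) and up to 0.41 (Psma5) on the log2 scale. These bounds belong to different genes. A difference inside a gene's own interval is compatible with its values, and no member passed after adjustment.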
